A study of Mus musculus with 15 samples.

Results

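The genes described here are 30 genes of cholesterol synthesis, sterol sensing, intracellular transport and efflux, chosen by name, and all 30 were found among the 24347 entries of the gene table. They comprised 8 genes of the mevalonate arm, 9 of the squalene and sterol arm, 6 of the SREBP control system, 3 of intracellular transport, and 4 of efflux and its LXR control. Bulk RNA sequencing had been done on 15 libraries of mouse primary hepatocytes, 3 in each of 5 groups. The cAMP+rIL-13 cells were held for 2 h with recombinant IL-13 (rIL-13) at 10 ng/mL and then received 100 µM cAMP for 3 h with rIL-13 still present, while the cAMP cells received the cAMP alone. The Gluca+rIL-13 cells had the same rIL-13 exposure around 100 nM glucagon for 3 h, the Gluca cells received the glucagon alone, and the vehicle cells neither stimulus nor rIL-13. Every group was labelled wild type, no group had rIL-13 alone, and the strain is not settled, because the strain label counts up from sample to sample and the study's methods name another strain. The 3 vehicle libraries could not be tied to single samples and are called a, b and c. Whether the 3 libraries of 1 group are separate animals or cultures is not labelled, so the p-values below reflect spread between libraries only, and that spread may be technical.

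Cholesterol is built from acetyl-CoA through mevalonate, farnesyl diphosphate and squalene to lanosterol, which later enzymes turn into cholesterol. When membranes are poor in sterol, the carrier Scap takes the transcription factor SREBP-2, the product of Srebf2, to the Golgi, where the proteases of Mbtps1 and Mbtps2 release its active part, and the Insig proteins hold the complex back when sterol is plentiful. When sterol is in excess, oxysterols activate the nuclear receptor LXRα, the product of Nr1h3, whose targets include the exporters Abca1, Abcg5 and Abcg8. In the liver the pair Abcg5 and Abcg8 works as a single heterodimer that moves sterols into bile.

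The deposited values are reads of each gene, scaled by a single factor in each library, and are called scaled reads here. The reads recovered from them summed to 15567726 to 24246021 per library. All 30 genes passed the filter (10 or more scaled reads in 3 or more libraries) and were tested among 12703 genes. Vehicle library a stood apart: its log2 difference from the mean of libraries b and c correlated with transcript length over the 30 genes (Pearson r = -0.758, Spearman rho = -0.736, across genes, which share their libraries and are not replicates), against r = -0.503 for library b minus c. Over 9046 genes the same Pearson r was -0.649 for library a, against -0.221 for library b minus c. The long transcript of Abca1 was at 2161 scaled reads in vehicle library a, and at 4396 and 5079 in b and c. Counts of genes past the test against vehicle are therefore given with and without library a. Marker genes of hepatocytes summed to 612420 to 753541 scaled reads in every library. The Kupffer cell markers summed to 2206 to 2277 in cAMP+rIL-13, 2321 to 2477 in cAMP, 2253 to 2395 in Gluca+rIL-13, 2384 to 2479 in Gluca and 2318 to 2346 in vehicle libraries. The cholangiocyte markers summed to 14123 to 14296 in cAMP+rIL-13, 12662 to 13128 in cAMP, 14802 to 15036 in Gluca+rIL-13, 13035 to 13734 in Gluca and 13768 to 14887 in vehicle libraries. The stellate cell markers summed to 269 to 294, 308 to 358, 250 to 299, 305 to 341 and 228 to 345 in the same order of groups, and the lymphocyte markers to 35.6 to 45.1, 47.9 to 51.9, 37.5 to 41.9, 48.5 to 68.5 and 40.9 to 55.1. With rIL-13 the cholangiocyte sums were thus higher and the stellate and lymphocyte sums lower under both stimuli, and the Kupffer sums lower under cAMP, without overlap between the groups. How many other genes separate likewise was not counted, and single markers went both ways. With rIL-13 under cAMP and glucagon, log2 fold changes ran from -0.23 to 0.19 and -0.07 to 0.47 for the 3 cholangiocyte markers tested. They ran from -0.55 to 0.10 and -0.58 to 0.37 for 5 stellate markers, and from -0.44 to 0.09 under cAMP for 7 Kupffer markers. The endothelial markers summed to 1056 to 1458 over all libraries. The defining markers Lrat, Krt7, Cd3e, Cd79a and Nkg7 were under 10 scaled reads in every library, and the part of other cells in the results below was not tested. With rIL-13, the endothelial genes Pecam1 (higher) and Lyve1 (lower) passed the test described below under both stimuli and Kdr (lower) under glucagon, as did the hepatocyte genes Hnf4a and Tat (lower) under both and Cps1 (lower) under cAMP. Of the cholangiocyte markers Sox9 (higher), and of the lymphocyte markers Ptprc (lower), passed it with rIL-13 under glucagon. Ptprc was the only lymphocyte marker tested, so the lymphocyte sums rest largely on 1 gene and do not measure lymphocytes. With rIL-13 under cAMP no cholangiocyte, stellate, Kupffer or lymphocyte marker passed it. Against vehicle, all 3 cholangiocyte markers tested, Krt19, Sox9 and Spp1, were lower under cAMP. In bulk RNA, fewer cells of a type and less RNA per cell cannot be told apart.

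The first question was what rIL-13 does to these genes under each stimulus. Abcg5 and Abcg8, which together form the sterol exporter, were lower with rIL-13 under cAMP and under glucagon, as was the sterol sensor Insig2, and Pmvk, the phosphomevalonate kinase, was higher under both. Stard4, a carrier of sterol between membranes, was lower with rIL-13 under glucagon. Under cAMP, 4 of the 30 genes passed the test (1 higher, 3 lower), where 3.9% of all tested genes did (2.52% higher and 1.38% lower). Under glucagon, 5 of the 30 passed (1 higher, 4 lower), where 5.73% of all tested genes did (3.5% higher and 2.23% lower). The median log2 fold change of the 30 genes was 0.05 under cAMP and -0.01 under glucagon, and that of all genes was 0.00 under both. All fold changes are on the scale of log2(scaled reads + 1), and the test is limma with Benjamini-Hochberg adjustment over all 12703 genes and a threshold of 0.05.

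**Figure D1:**
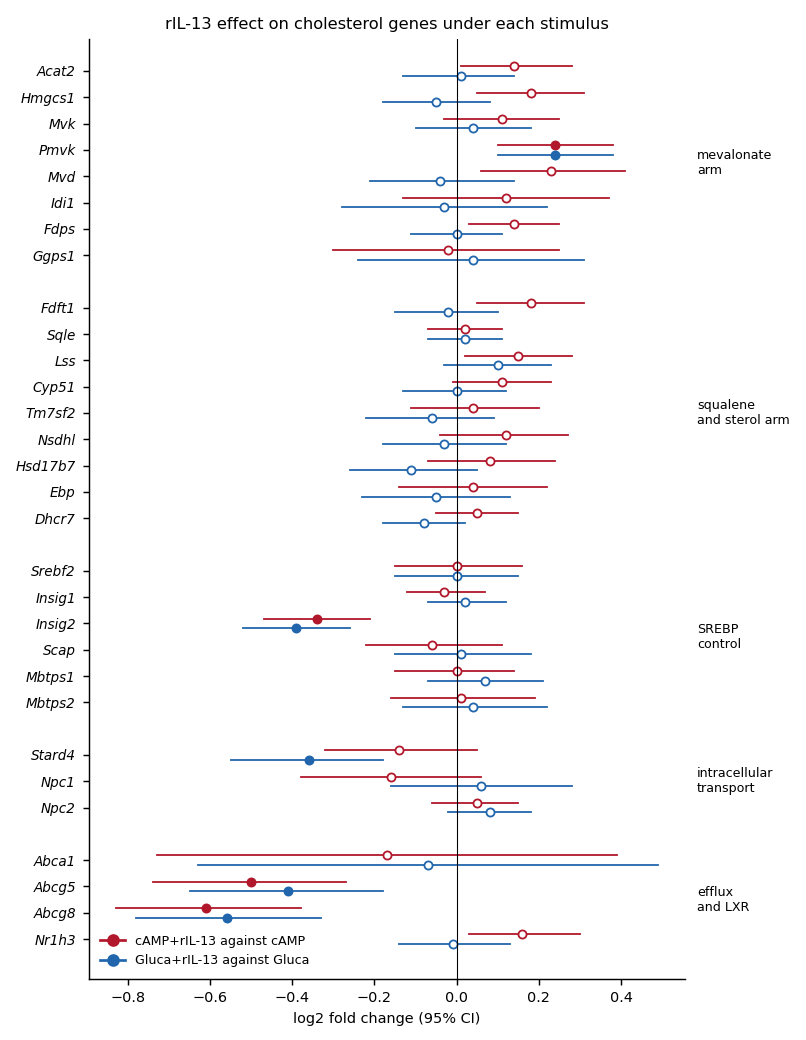
log2 fold change of each of the 30 genes (x axis) with rIL-13 under cAMP (red) and under glucagon (blue), with 95% confidence intervals from 15 libraries. Filled points passed the test. Abcg5, Abcg8 and Insig2 lie left of 0 under both stimuli, Pmvk lies right of 0 under both at 0.24, and most synthesis enzymes lie right of 0 under cAMP and around 0 under glucagon.

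Abcg5 was at 187.1, 164.2 and 165.7 scaled reads in the cAMP+rIL-13 libraries, against 243.4, 249.8 and 238.8 in the cAMP libraries. It was at 119.9, 114.1 and 102.4 in the Gluca+rIL-13 libraries, against 151.1, 152.0 and 144.6 in the Gluca libraries. Every library with rIL-13 was below every library of the same stimulus without it. For Abcg5 the log2 fold change came to -0.50 (SE 0.11, adjusted p = 0.0127 by limma) under cAMP and -0.41 (SE 0.11, adjusted p = 0.0348 by limma) under glucagon. The call for Abcg5 under cAMP was lost without cAMP+rIL-13 library 2 (adjusted p = 0.0752) or 3 (adjusted p = 0.0713). Its call under glucagon was lost without cAMP+rIL-13 library 3 (adjusted p = 0.0501), without cAMP library 1 (adjusted p = 0.0503) and without any 1 of the 6 Gluca+rIL-13 and Gluca libraries (adjusted p = 0.0562 to 0.131), with the log2 fold change between -0.46 and -0.35. With no filter on low values the Abcg5 call under glucagon was also lost (adjusted p = 0.0512).

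Abcg8 was at 148.9, 175.0 and 168.6 scaled reads in the cAMP+rIL-13 libraries, against 246.5, 243.9 and 259.4 in the cAMP libraries. It was at 94.2, 97.4 and 89.9 in the Gluca+rIL-13 libraries, against 150.0, 122.1 and 144.6 in the Gluca libraries. Again no library with rIL-13 reached the lowest library without it. Abcg8 had a log2 fold change under cAMP of -0.61 (SE 0.11, adjusted p = 0.00174 by limma), a level 0.657 times that of cAMP alone, and under glucagon of -0.56 (SE 0.11, adjusted p = 0.00304 by limma), a level 0.680 times that of glucagon alone. Both calls held without any 1 library, with log2 fold changes of -0.65 to -0.54 under cAMP and -0.65 to -0.5 under glucagon. Abca1 and Nr1h3, the rest of the efflux and LXR group, did not pass the test with rIL-13 under either stimulus. The log2 fold change of Abca1 was -0.17 under cAMP and -0.07 under glucagon, and that of Nr1h3 was 0.16 and -0.01.

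The genes of the exporter pair lie head to head on chromosome 17, Abcg5 on the minus strand (chr17:84658234-84683011, mm10) and Abcg8 on the plus strand (chr17:84676302-84700333, mm10). Their RefSeq starts are 110 bases apart, so the 250 bases before each start run partly through the same DNA, read from opposite strands. In the annotation used here 82 exon bases of Abcg5 lie over exons of Abcg8, 3.02% of the exon bases of Abcg5 and 2.19% of those of Abcg8, and reads there cannot be assigned to one gene without strand. Their 250-base promoters and that of Insig2 (chr1:121304353-121332589, minus strand, mm10) are shown. These are the 3 genes that passed the test as lower with rIL-13 under both stimuli. The planned choice, by largest rIL-13 change past the test, also held Pmvk, whose window is not printed and has CCAAT 1 time. Sequences are from RefSeq with build GRCm38.p6, read 5′ to 3′ on the strand of the gene, and capitals mark CCAAT on either strand, the letters of the box that NF-Y binds beside many SREBP sites.
Abcg8, plus strand, chr17:84682871-84683120: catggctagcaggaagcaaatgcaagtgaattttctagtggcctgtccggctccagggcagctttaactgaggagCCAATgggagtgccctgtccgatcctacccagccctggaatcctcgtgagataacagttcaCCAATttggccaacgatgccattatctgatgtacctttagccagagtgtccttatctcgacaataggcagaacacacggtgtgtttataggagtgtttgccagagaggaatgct
Abcg5, minus strand, chr17:84683012-84683261: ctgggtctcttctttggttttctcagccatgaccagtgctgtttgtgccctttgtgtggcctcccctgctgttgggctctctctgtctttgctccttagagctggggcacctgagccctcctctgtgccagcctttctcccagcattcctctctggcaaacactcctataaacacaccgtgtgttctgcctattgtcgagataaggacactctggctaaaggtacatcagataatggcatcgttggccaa
Insig2, minus strand, chr1:121332590-121332839: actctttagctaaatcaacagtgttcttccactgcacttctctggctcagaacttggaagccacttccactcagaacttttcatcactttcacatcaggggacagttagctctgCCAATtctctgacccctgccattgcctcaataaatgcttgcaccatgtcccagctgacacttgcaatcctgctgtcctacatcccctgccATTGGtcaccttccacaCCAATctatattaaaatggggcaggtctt

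The Abcg8 window holds CCAAT 2 times, the Insig2 window 3 times, and the Abcg5 window has no match to any motif searched. The CCAAT nearer the Abcg8 start ends on the RefSeq start of Abcg5, just outside the Abcg5 window. Promoters of 25 of the 30 genes were matched in the RefSeq table, and the first listed start was used where a gene had several, as Insig2 and Pmvk do. CCAAT on either strand was in 17 of these 25 windows (68%) and in 34.5% of the 27025 windows of all genes. TCACNCCAC, a form of the sterol regulatory element, was in 1 (Hmgcs1), where 1.04% of all windows hold it. The CRE core TGACGT was in 2 (Hmgcs1 and Insig1), where 6.56% of all windows hold it. TTCNNNGAA, the spacing most STAT proteins bind, was in 2 (Ebp and Ggps1), where 7.18% of all windows hold it, and TTC and GAA set 4 free bases apart, the STAT6 spacing, were in 1 (Ggps1), where 5.86% hold them. Of the 5 genes that passed the test with rIL-13, none of those matched had a STAT spacing or the CRE core in its window, and these counts describe letters, not bound sites.

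Insig2, which encodes the endoplasmic reticulum protein that holds Scap back, was at 2994, 3083 and 3069 scaled reads in the cAMP+rIL-13 libraries, against 3878, 4103 and 3628 in the cAMP libraries. It was at 2909, 2816 and 3102 in the Gluca+rIL-13 libraries, against 4093, 3591 and 3884 in the Gluca libraries, and at 4145, 3652 and 3958 in vehicle a, b and c. Each of the 6 libraries with rIL-13 was below all 9 others. With rIL-13, Insig2 had log2 fold changes of -0.34 (SE 0.06, adjusted p = 0.00271 by limma) under cAMP and -0.39 (SE 0.06, adjusted p = 0.000718 by limma) under glucagon, and both calls held under every alternative run. Its relative Insig1, a direct SREBP-2 target with the same retention role, did not pass the test with rIL-13 under either stimulus. The other 4 genes of SREBP control, Srebf2, Scap, Mbtps1 and Mbtps2, did not pass it either.

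Pmvk (chr3:89454541-89469013, plus strand, mm10), which phosphorylates phosphomevalonate, was at 1387, 1313 and 1349 scaled reads in the cAMP+rIL-13 libraries, against 1220, 1078 and 1130 in the cAMP libraries. It was at 1175, 1317 and 1211 in the Gluca+rIL-13 libraries, against 989.2, 1082 and 1068 in the Gluca libraries. The groups did not overlap under either stimulus. Pmvk was higher by 0.24 on the log2 scale under cAMP (SE 0.07, adjusted p = 0.0486 by limma) and 0.24 under glucagon (SE 0.07, adjusted p = 0.0419 by limma). These are the least secure of the calls with rIL-13. Under cAMP the call for Pmvk was lost without any 1 of the cAMP+rIL-13 libraries, cAMP library 2 or 3, Gluca+rIL-13 library 1 or 3, Gluca library 2 or 3, or vehicle library b (adjusted p = 0.054 to 0.206). Under glucagon it was lost without any 1 of the Gluca+rIL-13, Gluca or cAMP+rIL-13 libraries or cAMP library 3 (adjusted p = 0.0567 to 0.204). The Pmvk call under cAMP was also lost with no filter on low values (adjusted p = 0.0713), with scaling by library size (adjusted p = 0.0741) and in the FPKM table (adjusted p = 0.0523). That under glucagon was also lost with no filter (adjusted p = 0.0598) and in the FPKM table (adjusted p = 0.0799).

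The 17 synthesis enzymes otherwise moved little with rIL-13. Under cAMP, 16 of the 17 had a positive log2 fold change (range -0.02 to 0.24, median 0.12), where 49.8% of all genes were positive, and under glucagon 7 of 17 did (range -0.11 to 0.24, median -0.02), where 49.5% of all genes were positive. Only Pmvk passed the test under either. The enzymes were measured in the same libraries, so they are not separate pieces of evidence. Of the 3 Gluca+rIL-13 libraries, library 1 was the highest for 0 of the 17, and of the 3 cAMP libraries, library 3 was the lowest for 10. The cAMP+rIL-13 libraries 1, 2 and 3 were the highest for 5, 6 and 6. Whether other genes shift likewise between these libraries was not tested. Hmgcs1, the synthase that makes HMG-CoA, averaged 7682 ± 91.7 scaled reads in cAMP+rIL-13 and 6783 ± 539 in cAMP cells, and 7762 ± 210 in Gluca+rIL-13 and 8043 ± 642 in Gluca cells (SD, n = 3 each). Its log2 fold change with rIL-13 was 0.18 under cAMP (adjusted p = 0.145 by limma) and -0.05 under glucagon (adjusted p = 0.75 by limma). For Hmgcs1 the test was passed under cAMP without cAMP library 2 (log2 fold change 0.25, adjusted p = 0.0356). Hmgcs1 also passed by limma from FPKM values (0.19, adjusted p = 0.0197) and in the fit on the 6 libraries of those groups alone (0.18, adjusted p = 0.0284). Without vehicle library a, 7 of the 30 genes passed under cAMP, where 6.02% of all genes did, the added ones being Fdft1, the squalene synthase (0.18, adjusted p = 0.0393), Fdps, the farnesyl diphosphate synthase (0.14, adjusted p = 0.0462), and Npc1 (-0.16, adjusted p = 0.0455). The vehicle libraries enter this comparison only through the estimate of spread that all groups share.

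**Figure D2:**
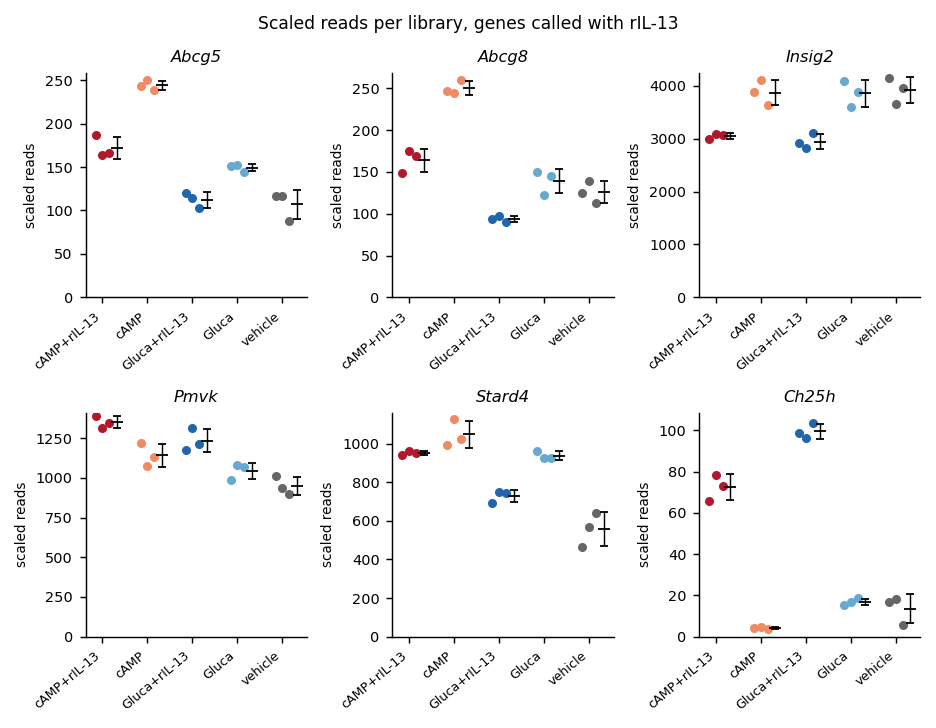
Scaled reads (y axis from 0) in each of the 15 libraries for the 5 genes that passed the test with rIL-13 and for Ch25h, an oxysterol enzyme outside the 30 genes. Colored points are libraries and black bars give the group mean with SD (n = 3). The Abcg5 and Abcg8 points are highest in cAMP cells, the Insig2 points of the rIL-13 groups lie below all others, and Ch25h is at 65.9 or above only in the rIL-13 groups.

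Stard4, which carries cholesterol through the cytosol, was at 941.9, 961.7 and 954.5 scaled reads in the cAMP+rIL-13 libraries, against 994.2, 1129 and 1027 in the cAMP libraries. It was at 695.4, 749.7 and 746.9 in the Gluca+rIL-13 libraries, against 964.2, 924.4 and 928.5 in the Gluca libraries. The groups did not overlap under either stimulus, but the gap was wider under glucagon. Stard4 fell by 0.36 on the log2 scale under glucagon (SE 0.09, adjusted p = 0.0178 by limma), and its log2 fold change under cAMP was -0.14 (SE 0.09, adjusted p = 0.6 by limma). The difference between the effects on Stard4 was 0.22 (95% interval -0.04 to 0.48, adjusted p = 0.998 by limma), so the effects are not shown to differ. The call for Stard4 under glucagon was lost without Gluca+rIL-13 library 1 (adjusted p = 0.0978), Gluca library 1 (adjusted p = 0.0721) or Gluca library 3 (adjusted p = 0.0545), and in the FPKM table (adjusted p = 0.0796). Npc1 and Npc2, which pass cholesterol out of the lysosome, did not pass the test with rIL-13 in the fit on all 15 libraries. Npc1 passed it under cAMP in the fit on those 6 libraries alone (log2 fold change -0.16, adjusted p = 0.0134 by limma).

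The main question for these genes was whether the rIL-13 effect differed between the stimuli. For that difference 0 of the 30 genes passed the test, as did 0% of all tested genes by limma, for which the smallest adjusted p was 0.322, and no count test was run. At an unadjusted p under 0.05 there were 608 genes (4.79%), 3 of them among the 30: Hmgcs1, Fdft1 and Mvd, the mevalonate diphosphate decarboxylase. The rIL-13 effect on Hmgcs1 was higher under cAMP by 0.23 (95% interval 0.05 to 0.42, adjusted p = 0.969 by limma), that on Fdft1 by 0.20 (0.02 to 0.38, adjusted p = 0.982 by limma) and that on Mvd by 0.27 (0.02 to 0.52, adjusted p = 0.998 by limma). For the genes that passed under both stimuli the difference was -0.09 (95% interval -0.42 to 0.24) for Abcg5, -0.05 (-0.37 to 0.26) for Abcg8, 0.05 (-0.14 to 0.23) for Insig2 and 0.00 (-0.19 to 0.20) for Pmvk. These intervals include 0 and also differences about as large as several of the effects themselves. Over the 30 genes the difference ran from -0.22 to 0.27 with a median of 0.06, where the median of all genes was 0.00. It was positive for 16 of the 17 synthesis enzymes, where 50.4% of all genes were positive. The enzymes share their libraries, so these signs are not separate pieces of evidence.

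The second question was what each stimulus did without rIL-13. Under cAMP, 11 of the 30 genes passed the test against vehicle (9 higher, 2 lower), where 25.8% of all tested genes did (13% higher and 12.8% lower). Under glucagon, 5 of the 30 passed (all higher), where 18.9% of all tested genes did (9.35% higher and 9.53% lower), a share near that of the 30 genes. The median log2 fold change of the 30 was 0.12 under cAMP and 0.11 under glucagon. The genes that rose under both were Abcg5, Stard4, Sqle, Insig1 and Hsd17b7. These comparisons share the vehicle libraries with each other, and share the cAMP or Gluca libraries with the rIL-13 comparisons. Without vehicle library a, 12 of the 30 passed under cAMP, where 28.9% of all genes did, and 10 under glucagon, where 24.4% did.

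Abcg5 was at 243.4, 249.8 and 238.8 scaled reads in the cAMP libraries and 151.1, 152.0 and 144.6 in the Gluca libraries, against 116.5, 116.4 and 87.4 in vehicle a, b and c. Abcg8 was at 246.5, 243.9 and 259.4 in the cAMP libraries and 150.0, 122.1 and 144.6 in the Gluca libraries, against 124.9, 138.8 and 113.1 in vehicle. All cAMP libraries stood well above the rest for both genes, whereas the Gluca libraries of Abcg8 overlapped vehicle. Against vehicle, the cAMP log2 fold change was 1.20 for Abcg5 (SE 0.11, adjusted p = 1.43e-07 by limma) and 0.99 for Abcg8 (SE 0.11, adjusted p = 8.75e-07 by limma). Under glucagon it was 0.49 for Abcg5 (SE 0.11, adjusted p = 0.00363 by limma) and 0.14 for Abcg8 (SE 0.11, adjusted p = 0.397 by limma). Without vehicle library a the Abcg5 values were 1.27 under cAMP and 0.56 under glucagon. The mean level in cAMP+rIL-13 cells was 172 ± 12.8 scaled reads for Abcg5 and 164 ± 13.6 for Abcg8, between the cAMP level and the vehicle level of 107 ± 16.8 for Abcg5 and 126 ± 12.9 for Abcg8 (SD, n = 3 each). In Gluca+rIL-13 cells the Abcg8 libraries (89.9 to 97.4) lay below all vehicle libraries (113 to 139). The Abcg5 libraries of Gluca+rIL-13 cells (102 to 120) overlapped vehicle (87.4 to 116). The rIL-13 groups were not tested against vehicle.

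Stard4 was at 994.2, 1129 and 1027 scaled reads in the cAMP libraries and 964.2, 924.4 and 928.5 in the Gluca libraries, against 467.0, 566.2 and 643.3 in vehicle a, b and c. Its log2 fold change against vehicle was 0.92 under cAMP (SE 0.09, adjusted p = 1.92e-07 by limma) and 0.76 under glucagon (SE 0.09, adjusted p = 3.32e-06 by limma), and 0.80 and 0.64 for Stard4 without vehicle library a. Sqle, the squalene epoxidase that commits squalene to sterols, was at 6282, 6565 and 6321 in the cAMP libraries and 6042, 6002 and 6148 in the Gluca libraries, against 3886, 4071 and 4217 in vehicle. The vehicle libraries lay below every stimulated library for both genes. Sqle rose by 0.66 under cAMP (SE 0.04, adjusted p = 1.09e-09 by limma) and by 0.58 under glucagon (SE 0.04, adjusted p = 8.38e-09 by limma). With rIL-13 added, Sqle averaged 6468 ± 56 scaled reads in cAMP+rIL-13 and 6389 ± 153 in cAMP cells, and 6135 ± 111 in Gluca+rIL-13 and 6064 ± 75.7 in Gluca cells (SD, n = 3 each).

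Insig1 averaged 6666 ± 63.3 scaled reads in cAMP and 5468 ± 234 in Gluca cells, against 4082 ± 204 in vehicle cells (SD, n = 3 each), log2 fold changes of 0.71 and 0.42. Hsd17b7, a ketoreductase of the sterol arm, rose by 0.31 under cAMP and 0.44 under glucagon. The remaining rises under cAMP were small. They were 0.28 for Scap, 0.27 for Pmvk and 0.22 for Mbtps1, the site-1 protease. Scap no longer passed without cAMP library 1 (adjusted p = 0.076), cAMP library 3 (adjusted p = 0.0561) or vehicle library a (adjusted p = 0.0507). Mbtps1 did not pass without the same libraries (adjusted p = 0.0688, 0.0706 and 0.0967 in that order).

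The falls against vehicle were those of Nr1h3 and Fdft1 under cAMP. Nr1h3, the LXRα gene, was at 850.5, 781.3 and 788.8 scaled reads in the cAMP libraries, against 1020, 985.7 and 895.1 in vehicle a, b and c. Its log2 fold change was -0.26 (SE 0.06, adjusted p = 0.00492 by limma). Fdft1 was at 2668, 2583 and 2462 in the cAMP libraries, against 3112, 2799 and 2822 in vehicle. It fell by 0.18 on the log2 scale (SE 0.06, adjusted p = 0.0346 by limma), and Fdft1 no longer passed without cAMP library 2 (adjusted p = 0.0649), cAMP library 3 (adjusted p = 0.143) or vehicle library a (adjusted p = 0.0995). Exons of Fdft1 overlap those of Ctsb on the other strand over 18.3% of its exon bases. Without vehicle library a, Dhcr7 (-0.15), Lss (-0.16), Ebp (0.26) and Npc2 (0.16) passed under cAMP, and Ebp (0.25), Fdps (0.19), Nsdhl (0.28), Pmvk (0.19) and Npc1 (-0.22) under glucagon.

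**Figure D3:**
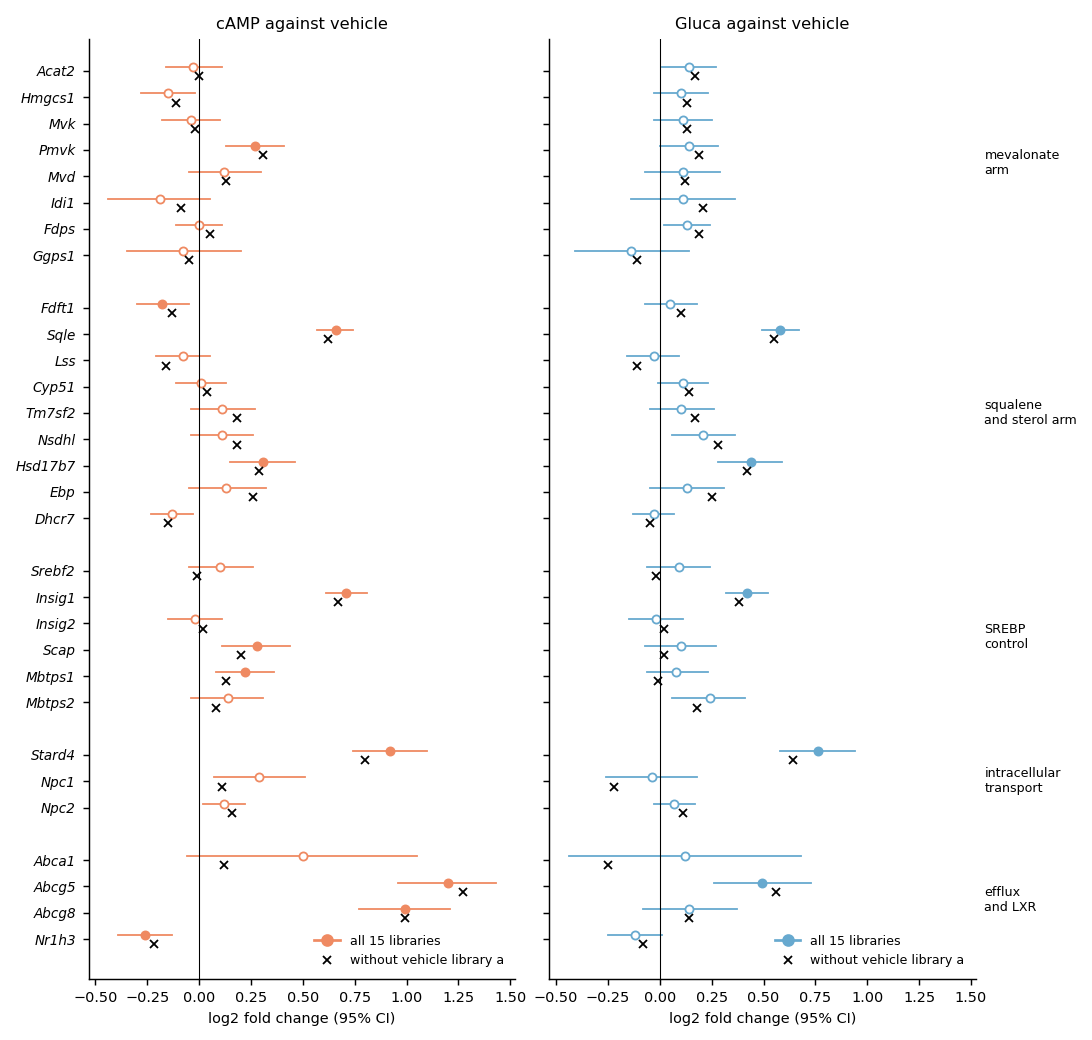
log2 fold change of each of the 30 genes against vehicle (x axis) under cAMP (left) and glucagon (right). Circles with lines are the values and 95% confidence intervals from 15 libraries, filled where the test was passed, and crosses are the values without vehicle library a. Abcg5 and Abcg8 reach 1.20 and 0.99 under cAMP against 0.49 and 0.14 under glucagon, and the crosses of Abca1 and Npc1 lie furthest from their circles.

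Abca1, which exports cholesterol to apolipoprotein A-I, was at 4940, 5336 and 5137 scaled reads in the cAMP libraries and 4608, 4030 and 3356 in the Gluca libraries, against 2161, 4396 and 5079 in vehicle a, b and c. Vehicle library a lay apart from all others. The log2 fold change of Abca1 against vehicle was 0.50 under cAMP (95% interval -0.06 to 1.05) and 0.12 under glucagon (-0.44 to 0.68), neither past the test. Without vehicle library a the Abca1 values were 0.12 and -0.25, and without vehicle library c the cAMP value was 0.74 (adjusted p = 0.0484). Npc1 was at 2615, 2649 and 2651 in the cAMP libraries and 2202, 2099 and 1997 in the Gluca libraries, against 1670, 2355 and 2541 in vehicle. Its value against vehicle under cAMP was 0.29 (adjusted p = 0.051 by limma), 0.36 without vehicle library b (adjusted p = 0.0333), 0.41 without c (adjusted p = 0.00411) and 0.11 without a.

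**Figure D4:**
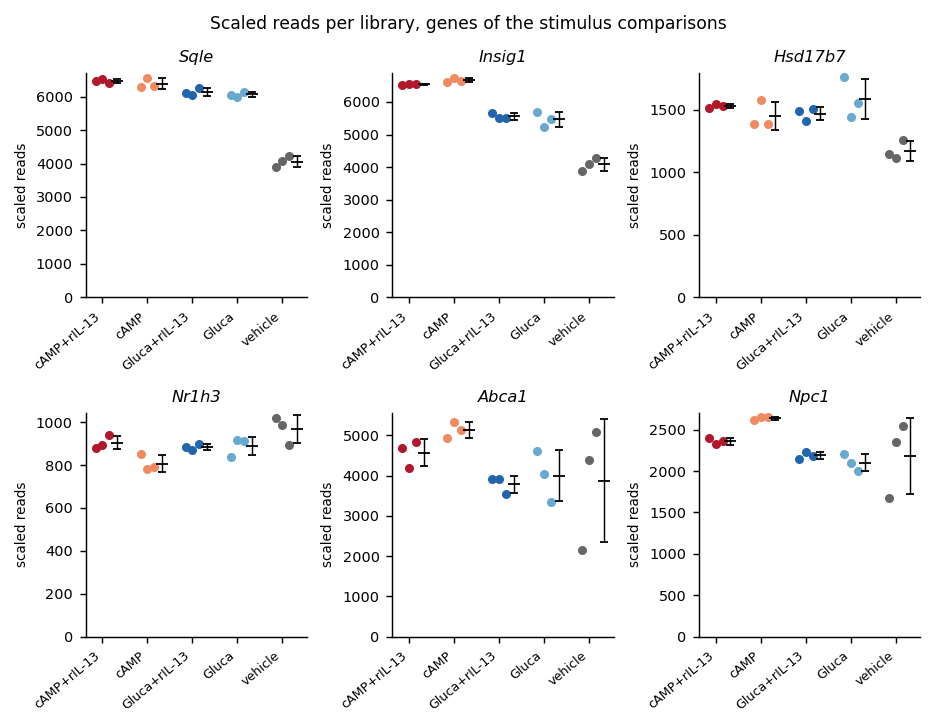
Scaled reads (y axis from 0) in each of the 15 libraries for 6 genes of the comparisons with vehicle. Colored points are libraries and black bars give the group mean with SD (n = 3). Sqle and Insig1 are lower in every vehicle library than in any stimulated library, and the lowest vehicle points of Abca1 (2161) and Npc1 (1670) are library a.

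Setting the stimuli against each other, 5 of the 30 genes passed the test (2 higher and 3 lower under glucagon than under cAMP), where 4.27% of all tested genes did (1.76% higher and 2.51% lower). The exporter pair differed most. Under glucagon Abcg8 stood at a log2 fold change from cAMP of -0.85 (SE 0.11, adjusted p = 5.8e-05 by limma), a level 0.556 times that under cAMP, and Abcg5 by -0.71 (SE 0.11, adjusted p = 0.000583 by limma), a level 0.613 times that under cAMP. Insig1 was lower by -0.29 (SE 0.05, adjusted p = 0.000734 by limma), and these 3 calls held under every alternative run. Hmgcs1 was higher by 0.25 (SE 0.06, adjusted p = 0.0278 by limma) and Fdft1 by 0.23 (SE 0.06, adjusted p = 0.0307 by limma). The Hmgcs1 call was lost without cAMP library 1 or 3 or Gluca library 1 or 3 (adjusted p = 0.0556 to 0.164), and the Fdft1 call without any 1 cAMP library or Gluca library 2 or 3 (adjusted p = 0.0525 to 0.163). Npc1 had a log2 fold change of -0.33 that did not pass (adjusted p = 0.103 by limma), and it passed without vehicle library a (adjusted p = 6.54e-05) or c (adjusted p = 0.0326). Npc1 also passed in the fit on those 6 libraries alone (adjusted p = 0.00227) and on the 12 stimulated libraries with the replicate number as a block (adjusted p = 0.000329) or without it (adjusted p = 4.22e-05). Abca1 had -0.37 (adjusted p = 0.562 by limma), and it passed without vehicle library a (adjusted p = 0.0349) and on the 12 stimulated libraries with the block (adjusted p = 0.0263) or without it (adjusted p = 0.0375). The fit on 12 libraries without the block was chosen after seeing the data. All 5 groups share 1 estimate of spread for each gene, so the vehicle libraries enter the SE of this comparison. Without vehicle library a the Npc1 value stayed at -0.33 and its SE went from 0.10 to 0.05. For Abca1 the value stayed at -0.37 and the SE went from 0.25 to 0.10. Without library a, 7 of the 30 genes passed, where 7.08% of all genes did.

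Levels between genes were compared as FPKM, which divide by transcript length. Fdps stood first of the 30 in every group, at a mean of 594 ± 7.74 FPKM in cAMP+rIL-13, 538 ± 20.1 in cAMP, 585 ± 20.6 in Gluca+rIL-13, 587 ± 23.3 in Gluca and 541 ± 47.3 in vehicle cells (SD, n = 3 each). Abcg8 stood last in every group, at 2.39 ± 0.147 FPKM in cAMP+rIL-13, 3.51 ± 0.206 in cAMP, 1.29 ± 0.059 in Gluca+rIL-13, 2.04 ± 0.262 in Gluca and 1.80 ± 0.217 in vehicle cells. Abcg5 was among the last 3 in every group, beside Ggps1, the geranylgeranyl diphosphate synthase, from which it did not differ beyond the spread in cAMP+rIL-13 cells (4.15 ± 0.358 for Abcg5 and 3.83 ± 0.473 FPKM for Ggps1). Insig2 was below Insig1 in every stimulated group and above it in vehicle cells. In cAMP+rIL-13 cells Insig2 was at 94.8 ± 0.0659 and Insig1 at 154 ± 1.6 FPKM, in Gluca+rIL-13 cells Insig2 was at 91 ± 1.53 and Insig1 at 130 ± 3.28 FPKM, and in vehicle cells Insig2 was at 118 ± 3.81 and Insig1 at 94.4 ± 6.32 FPKM. Exons of 14 of the 30 genes overlap those of another gene, and Acat2 has a near-identical copy, Acat3, so its reads are uncertain.

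**Figure D5:**
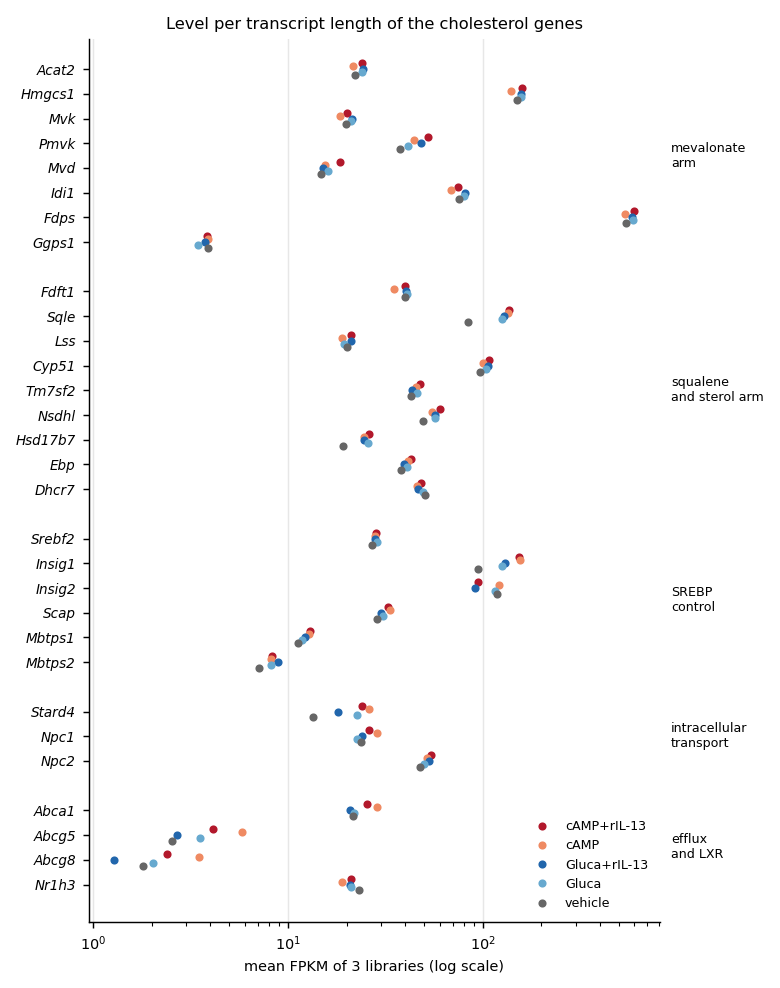
Mean FPKM of the 3 libraries of each group (x axis, log scale) for the 30 genes, ordered by role. Points are group means. Fdps is highest near 594 FPKM, Abcg8 is lowest at 1.29 to 3.51 FPKM, and the groups are furthest apart for Abcg5, Abcg8 and Stard4.

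Other genes of sterol metabolism were counted from a list of 52, all of which were tested. With rIL-13, 2 passed under cAMP (1 higher, 1 lower) and 3 under glucagon (1 higher, 2 lower), for medians of 0.01 and -0.02. These are 3.85% and 5.77% of the list, near the 3.9% and 5.73% of all tested genes. Of the 7 LXR partners and further LXR targets on the list, 0 passed with rIL-13 under either stimulus. Their median log2 fold changes were 0.01 under cAMP and 0.02 under glucagon, and LXR activity was not tested. In the fit without vehicle library a, 2 passed under cAMP and 6 under glucagon (1 higher, 5 lower), where 6.02% and 9.59% of all tested genes did. Ch25h, the enzyme that makes 25-hydroxycholesterol, a ligand of Insig proteins and of LXR, was at 65.9, 78.5 and 73.2 scaled reads in the cAMP+rIL-13 libraries, against 4.07, 4.71 and 3.58 in the cAMP libraries. It was at 98.9, 96.3 and 103.7 in the Gluca+rIL-13 libraries, against 15.2, 16.6 and 18.6 in the Gluca libraries, and at 16.8, 18.3 and 5.7 in vehicle. Every rIL-13 library was several times above every other. Ch25h rose by 3.85 on the log2 scale under cAMP (SE 0.29, adjusted p = 1.27e-07 by limma) and 2.50 under glucagon (SE 0.29, adjusted p = 2.36e-05 by limma), and the difference of 1.34 did not pass (95% interval 0.47 to 2.22, adjusted p = 0.873 by limma). The size of these values depends on the pseudocount, because the cAMP libraries hold under 10 scaled reads of Ch25h. With a pseudocount of 5 they were 3.09 under cAMP and 2.26 under glucagon, with a difference of 0.82, and from FPKM values they were 2.47, 2.00 and 0.47. Against vehicle Ch25h fell by 1.37 under cAMP (adjusted p = 0.00178 by limma, and 0.0671 in the fit on those 6 libraries alone) and by 1.16 without vehicle library a (adjusted p = 0.00691), and it was higher under glucagon than under cAMP by 1.80 (adjusted p = 0.00089 by limma).

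Lipa, the lysosomal acid lipase that frees cholesterol from esters, averaged 1670 ± 22.3 scaled reads in cAMP+rIL-13 and 2146 ± 142 in cAMP cells, and 1699 ± 88.5 in Gluca+rIL-13 and 2157 ± 169 in Gluca cells (SD, n = 3 each). Its log2 fold change with rIL-13 was -0.36 under cAMP (adjusted p = 0.00201 by limma) and -0.34 under glucagon (adjusted p = 0.00254 by limma). Gramd1c, a sterol transfer protein, fell by 0.35 under glucagon (adjusted p = 0.0347 by limma), a call that was lost for Gramd1c without any 1 of the Gluca+rIL-13 and Gluca libraries or cAMP+rIL-13 library 1 (adjusted p = 0.0509 to 0.17). Against vehicle, 20 of the 52 genes passed under cAMP (11 higher, 9 lower) and 12 under glucagon (5 higher, 7 lower), 38.5% and 23.1% of the list where 25.8% and 18.9% of all tested genes did. Leaving out vehicle library a gave 24 under cAMP (11 higher, 13 lower) and 17 under glucagon (8 higher, 9 lower), where 28.9% and 24.4% of all tested genes passed. Between the stimuli 3 of the 52 passed (5.77%, where 4.27% of all tested genes did), and 8 without vehicle library a, where 7.08% of all tested genes did. The 3 that passed in the fit on all 15 libraries were Ch25h, Rxrb and Abcg1, an exporter to HDL that was higher under glucagon by 0.78 (adjusted p = 0.00475 by limma).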

How the data were processed

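Bulk RNA of mouse primary hepatocytes was sequenced in 15 libraries, 3 in each of 5 groups, which were taken from titles and treatment labels. Per the submitters' processing notes, TopHat 1.3.2, Cufflinks 2.0.2 and build mm10 were used by the authors, who made their calls with edgeR. The annotation and strand setting are not given in the sources used here.

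The deposited main table holds a signal, reads of each gene scaled by a single factor in each library (0.797 to 1.25). Division by that factor gave whole reads within 0.1 for 98.6% to 98.9% of the values above 0. A second deposited table holds FPKM values and was used for levels between genes and for alternatives.

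The 12703 genes that had 10 or more scaled reads in 3 or more libraries entered limma 3.58.1 (R 4.3.3), with group as the only term and a robust variance trend on log2(scaled reads + 1), and p-values were adjusted by Benjamini-Hochberg over all genes at 0.05. The fit was checked on simulated data. Depth was 15567726 to 24246021 reads per library, and the SE of each gene comes from the spread between libraries. Alternatives were other filters, pseudocounts, scalings, tables and sets of libraries. Library values are given for genes past the test with rIL-13 and for the 3 largest changes each way against vehicle. The members and lists were chosen with earlier results of these data known.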

Additional observations from a re-analysis of the deposited data

How the results depend on the processing

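Of the 30 member results past the test, 18 kept their call under every alternative run. Over all 688 alternative values of these 30 results, 623 kept direction and call, 65 kept the direction and lost the call, and 0 turned sign. Of the 150 member results not past the test, 49 turned sign under at least 1 alternative (134 of 3512 values), none of these past the threshold and none larger than 0.12 in the fit above, and 22 passed under at least 1 alternative.

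The share of all tested genes past the test also moves with the setting. Without vehicle library a it was 6.02% with rIL-13 under cAMP and 9.59% under glucagon, against 3.9% and 5.73% in the fit above. The member counts below are therefore not read as results about the members. The count of members past the test with rIL-13 under cAMP was 9 in the fit on its own 6 libraries and 7 on the 12 stimulated libraries without the block, a setting chosen after seeing the data. With rIL-13 under glucagon it was 3 without a filter and 3 in the FPKM table. Against vehicle under cAMP it was 6 on its own 6 libraries, where Fdft1, Mbtps1, Nr1h3, Pmvk and Scap lost the call, and glucagon against cAMP gave 8 on the 12 stimulated libraries without the block. Leaving out 1 library gave 2 to 7 members with rIL-13 under cAMP (2 without cAMP+rIL-13 library 2 or 3, 7 without vehicle library a), 2 to 5 with rIL-13 under glucagon (2 without Gluca+rIL-13 library 1, Gluca library 1 or Gluca library 3, and 3 without any other Gluca+rIL-13 or Gluca library or cAMP+rIL-13 library 3), 0 for the difference of the rIL-13 effects, 8 to 13 for cAMP against vehicle, 5 to 10 for glucagon against vehicle (10 without vehicle library a) and 3 to 7 for glucagon against cAMP (3 without cAMP library 1 or 3 or Gluca library 3). In fits on all 5 groups the libraries share 1 estimate of spread, so a left-out library also moves the SE of comparisons it is not part of. Other causes were not tested.

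Of the 18 same-numbered pairs of stimulated libraries, 6 had deviations correlated above 0.1 (r from -0.468 to 0.486), and 5 of 12 libraries correlated best with their own number, so the numbers were not taken as pairing. With the replicate number as a block, 4, 5, 0 and 7 members passed with rIL-13 under cAMP, with rIL-13 under glucagon, for the difference and for glucagon against cAMP. The vehicle libraries carry no number.

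Among the results named above, these turned sign, none past the test. In the FPKM table the difference of the rIL-13 effects was 0.02 for Abcg8 and -0.01 for Insig2, and Insig2 had 0.03 for cAMP against vehicle. Scaling by library size gave -0.01 for the Pmvk difference. Without 1 library, that difference ran from -0.11 to 0.04 for Abcg8 and from -0.04 to 0.05 for Pmvk. With rIL-13 under glucagon, leaving out 1 library gave -0.19 to 0.04 for Abca1, -0.06 to 0.04 for Fdft1, -0.09 to 0.02 for Hmgcs1 and -0.10 to 0.02 for Mvd. Against vehicle it gave -0.07 to 0.03 for Insig2 under cAMP and -0.07 to 0.03 under glucagon, and under glucagon -0.22 to 0.08 for Npc1 and -0.25 to 0.36 for Abca1, both lowest without vehicle library a.

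Scaling by library size split the calls among all genes into 1265 higher and 2147 lower for cAMP against vehicle, where the fit above gave 1648 and 1624, and 956 and 1502 for glucagon against vehicle, where it gave 1188 and 1211. The planned edgeR and DESeq2 tests were not run, because the values are not whole counts.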
